A study of Homo sapiens with 4 samples.

Results

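The genes described here are the cytosolic ribosomal protein genes, which encode the protein components of the ribosome that translates nuclear mRNAs. They were taken by symbol from the GENCODE version 29 protein-coding genes on the autosomes and chromosome X, as RPL or RPS with a number and no suffix for a like copy, together with RPLP0, RPLP1, RPLP2 and RPSA. The rule gave 77 members among 58825 gene rows, 31 of the small 40S subunit and 46 of the large 60S subunit. It used symbols and annotation and no measured value, and it left out 22 other protein-coding RPL or RPS symbols, such as the S6 kinases and read-through genes.

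Expression was measured by RNA sequencing in LoVo, a human cell line from a colon adenocarcinoma that carries an uncleaved MET receptor with activity independent of its ligand. The comparison was between MET+ cells, labelled as a GFP control with wild-type genotype, and MET-KO cells, in which MET was disrupted with CRISPR-Cas9, with 2 biological replicates each. Both groups grew in DMEM with fetal bovine serum and antibiotics, and no further treatment is named. MET-KO cells were derived from single puromycin-selected clones chosen by Western blot, and the sources used here do not say whether the MET-KO replicates are of a single clone or whether the MET+ cells were cloned. A difference between MET+ and MET-KO cells in these libraries therefore cannot be told apart from a difference between clones, and p-values measure the spread between 2 cultures of each kind.

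The ribosome is assembled from rRNA and one copy of most of its proteins, so cells make the subunits of each particle in near equal numbers. The mRNAs of these proteins are among the most abundant in dividing cells. Most begin with a 5′ terminal oligopyrimidine (TOP) tract, an uninterrupted run of C and U at the first bases, through which the kinase complex MTORC1 and the binding protein LARP1 control their translation together. Mutation of a single copy of several of these genes causes Diamond-Blackfan anemia, in which red cell precursors fail to form.

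The first bases of several members are shown because this tract is what the members are known to share. Each line gives 30 bases of RefSeq sequence on GRCh38.p14 in the sense direction, 10 before the annotated start and 20 from the start on, and capitals mark the longest pyrimidine run of at least 6 bases at or near the start, where there is one. The first 6 genes are members with large decreases and a single annotated start, and RPL38, RPL9 and RPS3 are members with some of the smallest changes.
RPLP0 (chr12:120201092-120201121, minus strand): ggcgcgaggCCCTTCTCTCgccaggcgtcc
RPL41 (chr12:56116623-56116652, plus strand): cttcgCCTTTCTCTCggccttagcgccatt
RPS14 (chr5:150449720-150449749, minus strand): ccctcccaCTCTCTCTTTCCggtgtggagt
RPL4 (chr15:66504836-66504865, minus strand): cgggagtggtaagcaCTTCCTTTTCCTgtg
RPLP1 (chr15:69452808-69452837, plus strand): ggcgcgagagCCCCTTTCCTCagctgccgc
RPS29 (chr14:49598691-49598720, minus strand): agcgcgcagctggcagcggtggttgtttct
RPL38 (chr17:74203668-74203697, plus strand): aagtctcgttctttttcgTCCTTTTCCCCg
RPL9 (chr4:39458903-39458932, minus strand): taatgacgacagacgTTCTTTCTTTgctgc
RPS3 (chr11:75399508-75399537, plus strand): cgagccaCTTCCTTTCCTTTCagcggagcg

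Each gene was searched for a run of at least 6 bases of C or T on the sense strand. The window lay between 5 bases before and 15 bases after each of its annotated starts, and a run at any start was counted. The run need not begin at the first base, and in RPL4, RPL9 and RPL38 it began 5, 5 and 8 bases later. Such a run was present in 55 of the 62 members with a sequence (88.7%). Over all 27305 genes with such a sequence, 6115 (22.4%) held a run. Of the members called lower in MET-KO cells, 12 had a sequence and 11 of these (91.7%) held a run, near the share of all members. The run was therefore present both in the decreased genes RPLP0, RPL41, RPS14 and RPL4 and in RPL38, RPL9 and RPS3, and RPS29 had none in this window.

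Sequencing depth was 8429142 and 10286552 counts for the MET+ libraries, and 10137583 and 10228991 for the MET-KO libraries. MET itself had 338 and 336 CPM (counts scaled with TMM factors to a common library size) in MET+ and 84.4 and 88.9 CPM in MET-KO cells, a log2 fold change of -1.96 ± 0.095 (standard error SE, adjusted p = 1.49e-18 in edgeR). Of 10 markers of colon epithelium, 7 had counts in every library, CDX1 had none and KRT20 had none in MET+ cells, with summed levels of 8100 and 8050 CPM in MET+ and 6860 and 6090 CPM in MET-KO cells. Markers of fibroblasts, immune cells and endothelium summed to at most 1.84 CPM, with COL1A2, DCN, PTPRC, CD3E, MS4A1, KDR and CDH5 at 0 in all libraries. KRT18 and KRT8 made up most of the summed epithelial levels, and the other markers moved both ways. CEACAM5, which encodes a surface protein of colon epithelium, had 392 and 487 counts in MET+ and 0 in both MET-KO libraries. VIL1 (43 and 58 against 3 and 3 counts), LGALS4 (89 and 107 against 1 and 1), EPCAM and CDH1 were lower too. CDX2 (525 and 648 against 1477 and 1338) and KRT20 (0 and 0 against 27 and 28) had more counts in MET-KO cells.

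The share of all counts that fell on ribosomal protein genes differed between MET-KO and MET+ cells by less than the spread of the replicates when taken of the raw library totals. Members took 18.2% and 17.8% of each MET+ library and 18.2% and 17.4% of each MET-KO library. The means were 18.04 ± 0.298% and 17.8 ± 0.566% (SD, n = 2 each), with p = 0.667 in an exact two-sided permutation test whose smallest possible p is 0.33. The difference of the means, MET-KO minus MET+, turned positive without MET-KO replicate 2 (0.155 percentage points) and without mitochondrially encoded genes (0.162 percentage points). With the TMM effective library size in place of the total, on which the CPM values rest, member counts came to 18.6% and 18.8% in MET+ and 18.1% and 16.4% in MET-KO cells. On that scale the groups did not overlap, with a difference of -1.48 percentage points at the same smallest p of 0.33 in the exact permutation test. In these bulk cultures a smaller number of expressing cells and a lower level per cell cannot be told apart. Reads counted on the 1132 annotated pseudogenes of these genes amounted to at most 0.427% of the member counts in any library.

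Summed 40S counts were lower relative to summed 60S counts in MET-KO cells. The ratio of summed 40S to 60S member counts, which does not depend on library scaling, was 0.888 and 0.919 in MET+ and 0.871 and 0.846 in MET-KO cells, so the groups did not overlap. The means were 0.904 ± 0.0224 and 0.859 ± 0.0176 (SD, n = 2 each). Abundant genes weigh most in these sums. RPS29 on chromosome 14 alone took 5.74% of member counts in MET+ and 4.23% in MET-KO cells. Once RPS29 was left out of the 40S sum, the MET+ and MET-KO ratios overlapped, and no test was run on that ratio. The lower ratio over all members is therefore not read as a change of the whole subunit. For the ratio over all members the exact two-sided permutation test gave p = 0.33, the smallest that 2 against 2 allows. No difference could pass 0.05 in this design.

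The order of abundance among the members was largely kept. In QuantSeq libraries each read marks the 3′ end of an mRNA, so counts do not scale with transcript length. Levels may still depend on how reads that match several genes were counted, which is not given. Members that share at least 50% of their transcript end with other genes had a median of 825 CPM. Those that share none had 2379 CPM, so the ranks below are ranks of counted reads. Mean levels of the 76 tested members had a median of 1951 CPM, and 74 were above 100 CPM. The highest was RPS29, a zinc-binding protein of the 40S head, at 10745 CPM in MET+ cells. It was followed by RPS12 (8970 CPM), RPS27A (8766 CPM), RPL27A (7030 CPM) and RPLP1 (6777 CPM). In MET-KO cells these 5 genes had 7290, 8129, 6980, 5901 and 5074 CPM. They took 22.6% of the member counts in MET+ and 19.3% in MET-KO cells, and RPS12 took the first rank from RPS29. Between the groups RPLP0 moved from rank 10 to 22, RPS14 from 20 to 38 and RPL4 from 28 to 45. The levels of the 76 members in the 2 groups had a Spearman correlation of 0.976 across genes, which are not independent replicates.

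In the test across 13801 genes, 20 of the 76 tested members (26.3%) passed an adjusted p of 0.05, 5 higher and 15 lower in MET-KO cells. Over all tested genes 54.1% passed, 27.2% higher and 26.9% lower. Among the 1113 genes whose mean log2 CPM was 7 or more, where most members lie, 64.4% passed, 238 higher and 479 lower. The 26.3% of the members is set beside these shares as a description, without a test. Their median log2 fold change was -0.02 (quartiles -0.20 and 0.09), against 0.01 (quartiles -0.43 and 0.55) for all tested genes and -0.14 for the highly expressed genes. A change smaller than 0.2 on the log2 scale was seen in 50 of 76 members (65.8%), against 23.8% of all tested genes and 33.0% of the highly expressed ones. Groups did not overlap in 16 members that were higher and 27 that were lower in MET-KO cells, beside 38.5% and 37.1% of all tested genes.

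**Figure D1:**
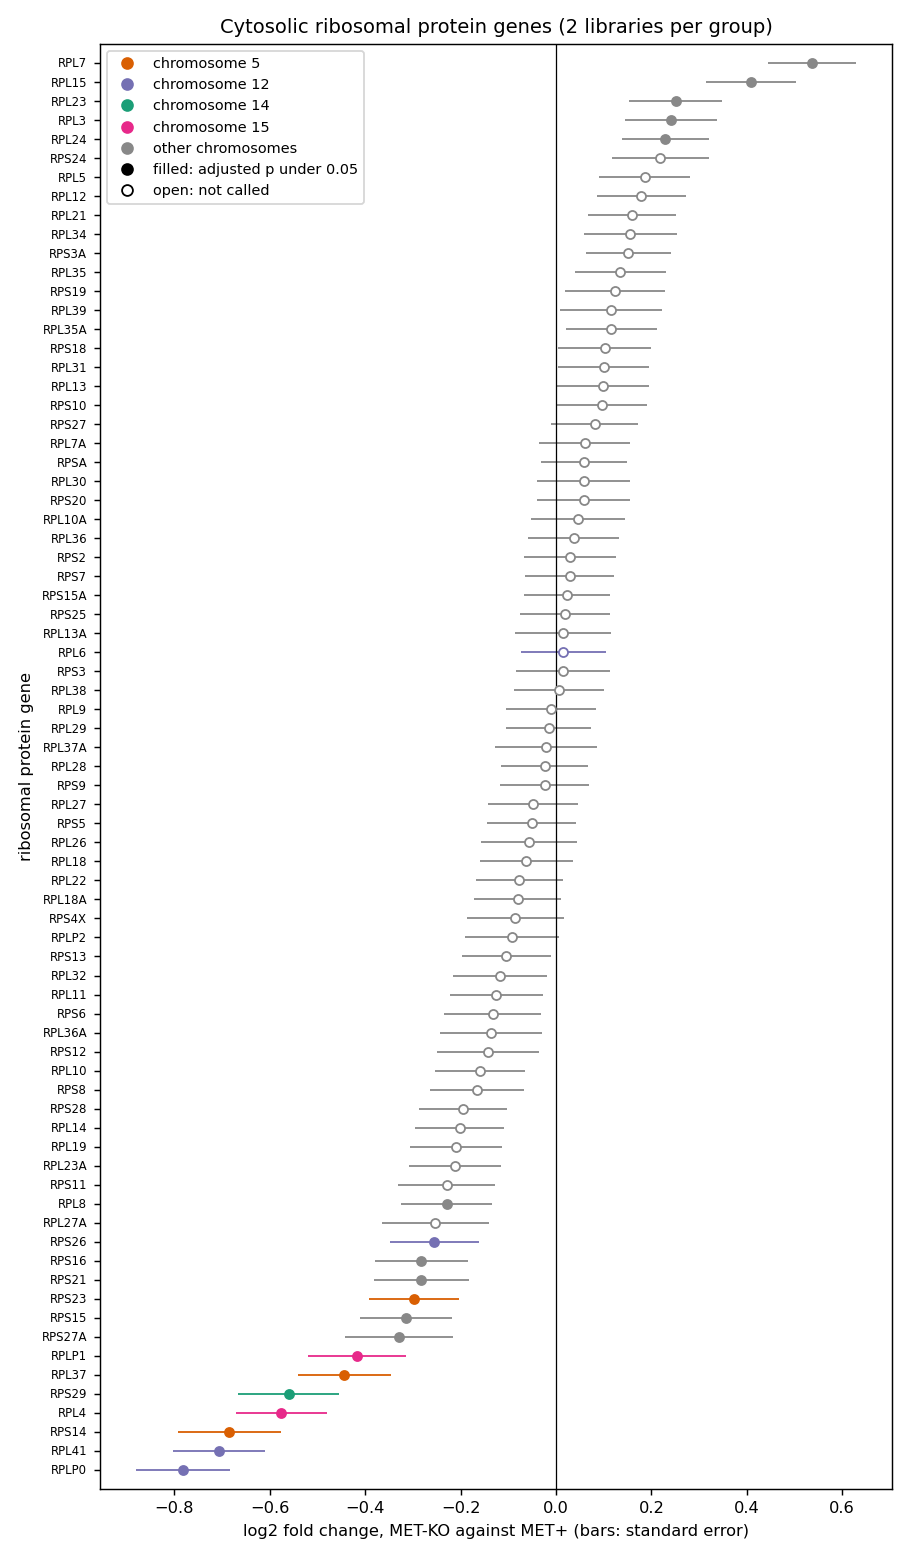
Log2 fold change in MET-KO against MET+ cells (x axis) of 75 of the 76 tested ribosomal protein genes (y axis), with bars for the standard error of the edgeR fit on 2 libraries per group. Filled points passed an adjusted p of 0.05 and colours mark chromosomes 5, 12, 14 and 15, whose genes hold 10 of the 15 decreases.

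The split between higher and lower calls depended on how libraries were scaled. With the library total as the only scaling, 19 members were higher and 13 lower and the median of all tested genes moved from 0.01 to 0.11. With the summed member counts as the library size, 23 were higher and 13 lower at an all-gene median of 0.13, and with TMM factors from chromosomes without a shift 2 were higher and 21 lower. The median of the members was 0.08, 0.10 and -0.07 in these settings, so no direction is given for the family. Members that joined the higher calls under the library total included RPS10, RPS18, RPS19, RPS24 and RPS3A, although no 40S gene was among the 5 higher calls with TMM scaling. The decreases of RPLP0, RPL41, RPS14, RPL4, RPS29, RPL37 and RPLP1 and the increases of RPL7 and RPL15 were called in all 15 alternative fits. Under the fold limit of 0.5 on the log2 scale, which is set on the calls and is not among these fits, RPL37, RPLP1 and RPL15 were no longer called.

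Of the 15 decreased members, 10 lay on 4 chromosomes on which genes of other kinds were lower too. The other tested genes of chromosomes 5, 12, 14 and 15 had median log2 fold changes of -0.43, -0.32, -0.52 and -0.43, while those of every other chromosome with members lay between -0.01 and 0.15. Of the 11 members on these 4 chromosomes, 10 were lower in MET-KO cells and none higher, with a median of -0.56. Of the 2314 other tested genes there, 51.3% were lower. The 65 tested members elsewhere had 5 higher and 5 lower calls and a median of 0.01. Chromosomes 7 and 21, whose medians were 0.50 and 0.30, hold no member. The RNA counts do not show DNA copy number, and its part in these differences was not tested.

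The largest decrease among abundant members was that of RPLP0 (ENSG00000089157, chromosome 12, 120196686 to 120201235), the scaffold of the P stalk through which elongation factors reach the 60S subunit. It had 4728 and 4485 CPM in MET+ and 2735 and 2622 CPM in MET-KO cells. Both MET-KO libraries lay far below both MET+ libraries, with a log2 fold change of -0.78 ± 0.099 (SE, Benjamini-Hochberg adjusted p = 3.59e-08 over all tested genes in edgeR's quasi-likelihood fit, as for all such values). The 105 other tested genes within 5 Mb had a median of -0.57. The stalk protein RPLP1 (ENSG00000137818, chromosome 15, 69452784 to 69456194) had 6934 and 6620 CPM against 5283 and 4864 CPM. It fell by 0.42 ± 0.103 on the log2 scale (SE, adjusted p = 0.000859), close to the -0.41 of its neighbours. The third stalk gene, RPLP2 on chromosome 11, had 3006 and 2943 CPM against 2949 and 2632 CPM, groups that overlapped. Its log2 fold change was -0.09 (adjusted p = 0.45), beside neighbours at 0.13. The P stalk list, 2 of 3 lower and none higher, had this count in all 15 alternative fits, with medians from -0.48 to -0.30, and RPLP0 alone remained under the fold limit of 0.5.

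On chromosome 12, RPL41 (ENSG00000229117, 56116586 to 56117943), which encodes a very short basic peptide of the 60S subunit, had 423 and 518 CPM in MET+ and 295 and 282 CPM in MET-KO cells. The groups did not overlap, although the MET+ libraries differed from each other, and the log2 fold change was -0.71 ± 0.097 (SE, adjusted p = 1.58e-07) with neighbours at -0.50. RPS26 (ENSG00000197728, 56041351 to 56044697), a 40S protein at the exit of the mRNA channel, lies close by. It had 165 and 170 CPM against 145 and 136 CPM, a log2 fold change of -0.26 ± 0.093 (SE, adjusted p = 0.0204) with neighbours at -0.48. This smaller decrease lost its call in 7 of 15 alternative fits. RPL6 (ENSG00000089009, 112405190 to 112418838) was the single member on these chromosomes without a decrease. It had 504 and 478 CPM in MET+ cells, overlapping the 502 and 490 CPM of the MET-KO libraries. Its log2 fold change was 0.01 ± 0.089 (SE, adjusted p = 0.906), and its 74 neighbours within 5 Mb had a median of 0.18. The other tested genes of chromosome 12 as a whole had a median of -0.318, with quartiles of -0.825 and 0.277.

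On chromosome 5, RPS14 (ENSG00000164587, 150442635 to 150449756), a protein of the 40S platform whose loss of 1 copy marks the 5q- syndrome, had 2785 and 3309 CPM in MET+ and 2095 and 1697 CPM in MET-KO cells. All MET-KO values were below the MET+ values, with a spread in each group, and the log2 fold change was -0.69 ± 0.108 (SE, adjusted p = 1.94e-06). RPL37 (ENSG00000145592, 40825262 to 40835335), a zinc-binding 60S protein, had 3956 and 3779 CPM against 2917 and 2769 CPM, a log2 fold change of -0.44 ± 0.098 (SE, adjusted p = 0.000266). RPS23 (ENSG00000186468, 82273358 to 82278577), which sits at the decoding centre, had 2105 and 2052 CPM against 1719 and 1662 CPM. It fell by 0.30 ± 0.094 on the log2 scale (SE, adjusted p = 0.00819). Neighbours of the 3 genes had medians of -0.38, -0.55 and -0.47, so RPS14 lay below its surroundings and the others above theirs.

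RPS29 (ENSG00000213741, chromosome 14, 49570984 to 49599164), the most abundant member, had 10729 and 10762 CPM in MET+ and 7688 and 6891 CPM in MET-KO cells. The MET+ libraries were nearly equal and both MET-KO libraries lay well below them, with a log2 fold change of -0.56 ± 0.106 (SE, adjusted p = 3.65e-05) and neighbours at -0.37. RPL4 (ENSG00000174444, chromosome 15, 66498015 to 66524532), whose loop lines the tunnel through which the new peptide leaves, had 2568 and 2464 CPM against 1688 and 1688 CPM. Its replicates agreed closely, and the log2 fold change was -0.58 ± 0.095 (SE, adjusted p = 4.55e-06) with neighbours at -0.39.

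**Figure D2:**
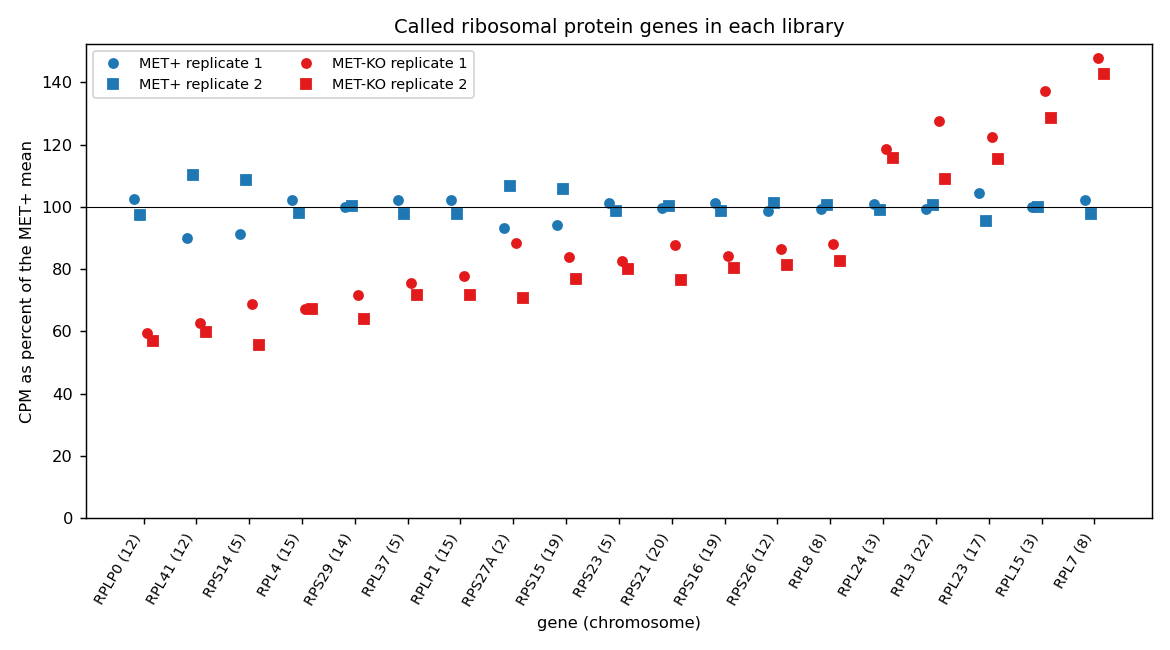
Level of 19 of the 20 called ribosomal protein genes in each of the 4 libraries, as CPM in percent of the MET+ mean (y axis), with the chromosome of each gene in brackets on the x axis. MET-KO libraries (red) stand below the MET+ libraries (blue) for the 14 genes on the left and above them for RPL24, RPL3, RPL23, RPL15 and RPL7 on the right.

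Outside these chromosomes 5 members were lower in MET-KO cells. The ubiquitin fusion gene RPS27A on chromosome 2 had 8169 and 9363 CPM in MET+ and 7756 and 6204 CPM in MET-KO cells, a log2 fold change of -0.33 (adjusted p = 0.0145). The 40S genes RPS15 and RPS16 on chromosome 19 and RPS21 on chromosome 20 had log2 fold changes of -0.32, -0.28 and -0.28 (adjusted p = 0.00686, 0.0147 and 0.0159). RPL8 on chromosome 8, a protein of the peptidyl transferase centre, had -0.23 (adjusted p = 0.0424). The 56 members without a call ran from -0.25 for RPL27A, with 6492 and 7569 CPM in MET+ and 6530 and 5271 CPM in MET-KO cells, to 0.22 for RPS24. RPS12 had -0.14 (adjusted p = 0.273). Each of the 5 lower calls on other chromosomes was lost in at least 1 of the 15 alternative fits, and their neighbours within 5 Mb had medians between -0.09 and 0.11.

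All 5 increases were in 60S genes. RPL7 (ENSG00000147604, chromosome 8, 73290267 to 73295789) had 1039 and 995 CPM in MET+ and 1502 and 1449 CPM in MET-KO cells. The MET-KO libraries agreed closely above the MET+ libraries, with a log2 fold change of 0.54 ± 0.093 (SE, adjusted p = 9.04e-06). RPL15 (ENSG00000174748, chromosome 3, 23916545 to 23924374), mutated in some patients with Diamond-Blackfan anemia, had 1397 and 1396 CPM against 1916 and 1794 CPM, a log2 fold change of 0.41 ± 0.094 (SE, adjusted p = 0.000415). Both genes lie among neighbours with positive medians, 0.27 and 0.38 over 19 genes each. RPL23, which holds the factor EIF6 at the subunit interface, RPL3, beside the peptidyl transferase centre, and RPL24, which forms a bridge to the 40S subunit, had log2 fold changes of 0.25, 0.24 and 0.23 (adjusted p = 0.0289, 0.035 and 0.0336). These 3 calls were lost in 4 or 5 of the 15 alternative fits. RPL7 overlaps RDH10 and RPL15 overlaps NKIRAS1 on the opposite strand, as do RPL4 with ZWILCH, RPS29 with LRR1 and RPS23 with ATG10, and whether strand was used in counting is not given in the sources used here.

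Across the 76 tested members, the log2 fold change had a Spearman correlation of 0.502 and a Pearson correlation of 0.704 with the median of the other genes of the chromosome. With the median of genes within 5 Mb the values were 0.522 and 0.724. These are correlations across genes that share chromosomes, neighbours and libraries. Over the 65 members outside chromosomes 5, 12, 14 and 15 they were 0.26 and 0.262 with the chromosome median, and 0.281 and 0.372 with the median within 5 Mb. Of the members, 54 lay within 0.2 of their chromosome's median. Of the 76, 75 lay between the quartiles of the other genes of their chromosome. The median distance from the chromosome median was 0.11, against a median size of the log2 fold change of 0.13.

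**Figure D3:**
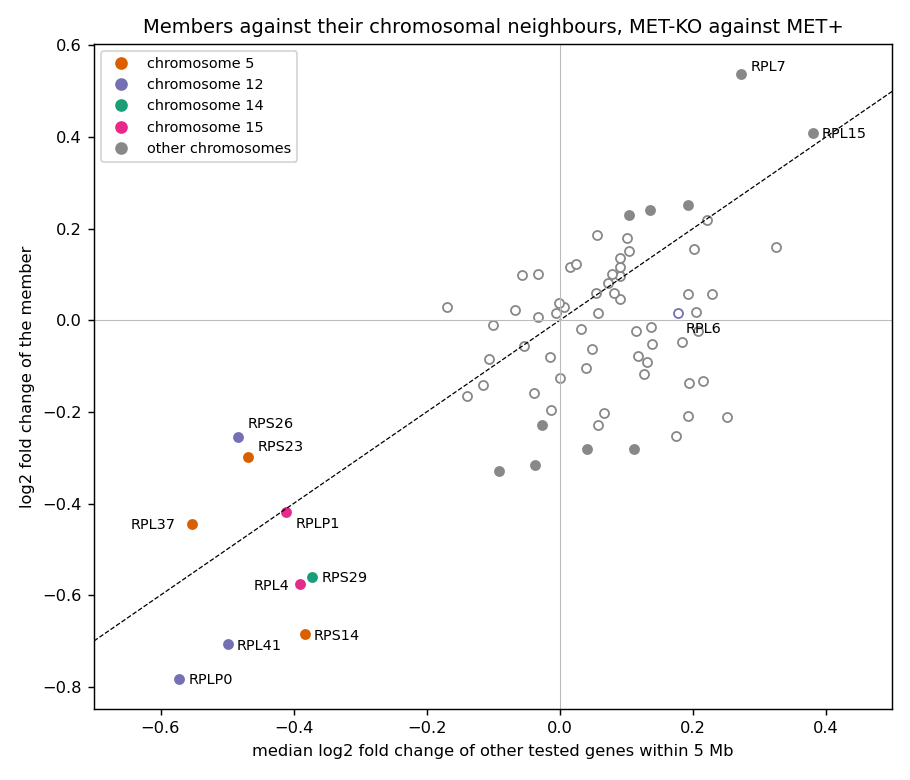
Log2 fold change of 75 of the 76 tested ribosomal protein genes in MET-KO against MET+ cells (y axis) plotted against the median log2 fold change of the other tested genes within 5 Mb (x axis), with filled points for called genes and a dashed line at equality. The members of chromosomes 5, 12, 14 and 15 lie at the lower left, except RPL6, whose neighbours have a median of 0.18, and RPL7 and RPL15 lie at the upper right.

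Libraries of the same group differed by about as much as many of these changes. MET-KO replicate 2 was below MET-KO replicate 1 in 72 of 76 members, with a median log2 difference of -0.11, while MET+ replicate 1 was above MET+ replicate 2 in 42 members, with a median of -0.01 for replicate 2 against 1. Without MET-KO replicate 1, 4 members were higher and 26 lower, and without MET-KO replicate 2, 10 were higher and 10 lower. Without MET+ replicate 1 the counts were 2 and 11, and without MET+ replicate 2 they were 2 and 7. Lower calls on chromosomes 5, 12, 14 and 15 numbered between 7 and 10 in these 4 fits, 7 of 7 without MET+ replicate 2 but 10 of 26 without MET-KO replicate 1. They were 10 of 21 with TMM factors from unshifted chromosomes and 8 of 17 with DESeq2's Wald test. The 7 decreases called in all 15 alternative fits lie on these chromosomes.

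Among members with a known role outside translation or in disease, calls were counted beside 27.2% higher and 26.9% lower of all tested genes. RPL5 and RPL11, which bind MDM2 together with the 5S rRNA, had log2 fold changes of 0.19 (adjusted p = 0.103) and -0.13 (adjusted p = 0.284). RPL5 was higher under the library total scaling. In a partial list of 9 members mutated in Diamond-Blackfan anemia, 2 were lower, RPS26 on chromosome 12 among them, and none higher. RPL15, called higher and mutated in some patients, is not in this list. RPS19, the most often mutated of them, had 5112 and 5471 CPM in MET+ and 6222 and 5305 CPM in MET-KO cells, overlapping groups with a log2 fold change of 0.12 (adjusted p = 0.335). RPS24, RPL35A, RPS10 and RPS7 had 0.22, 0.12, 0.10 and 0.03, none called. Under the library total scaling 5 of the 9 were higher and 1 lower. The X-linked members RPL10, RPL36A, RPL39 and RPS4X had -0.16, -0.14, 0.12 and -0.09, and none was called.

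Many of these genes also carry small nucleolar RNAs in their introns, which guide the modification of rRNA. The 27 tested members with an annotated snoRNA gene inside had 2 higher and 2 lower calls and a median log2 fold change of 0.02. The 49 without had 3 higher and 13 lower calls and a median of -0.05. Over all tested genes 27.2% were higher and 26.9% lower. RPL37 and RPL4, the 2 lower calls with a snoRNA gene inside, lie on chromosomes 5 and 15. All other members on chromosomes 5, 12, 14 and 15 are without one, so the 2 sets also differ by chromosome.

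Many members share the end of their transcript, where reads were taken, with other annotated genes. Over the last 200 bases of each transcript, 24 members had no 50-base stretch in common with another gene and a median level of 2379 CPM. The 23 members with at least 50% of these stretches shared had a median of 825 CPM. Level and shared percentage had a Spearman correlation of -0.466 over the 77 members, and log2 fold change and shared percentage one of 0.239 over 76. RPL17 on chromosome 18, with 92.1% shared with 17 other genes, had 4 and 2 counts in MET+ and 3 and 10 in MET-KO cells and was not tested. RPL6 shared 83.4%, RPL7 55.6% and RPL41 55.0%, whereas RPS14, RPL4, RPL37 and RPLP1 shared none. For genes with a long annotated transcript, such as RPL37 and RPL4, this window may lie away from the end that was sequenced, and how reads with several matches were counted is not given in the sources used here.

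The ribosomal protein genes outside the rule, 8 of 10 tested, had 1 higher call and 4 lower calls. RPL22L1, the paralog that can replace RPL22 in the ribosome, had 762 and 696 CPM in MET+ and 1059 and 965 CPM in MET-KO cells. It rose by 0.47 ± 0.094 on the log2 scale (SE, adjusted p = 6.34e-05), while RPL22 had 241 and 220 CPM against 216 and 221 CPM, a log2 fold change of -0.08 (adjusted p = 0.497). RPL36AL on chromosome 14 had 741 and 736 CPM against 452 and 405 CPM, a log2 fold change of -0.79 ± 0.092 (SE, adjusted p = 6.78e-09). RPL39L on chromosome 3 and RPL26L1 on chromosome 5 had log2 fold changes of -0.46 and -0.42 (adjusted p = 0.00764 and 0.00324). The fusion gene FAU, RPS27L and RPL7L1 had -0.22, 0.16 and 0.10 and were not called. RPL10L had no count and RPL3L had 2 counts in all, so neither was tested.

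Calls among other genes of translation and ribosome production are set beside the same 27.2% higher and 26.9% lower of all tested genes. Lower calls were more common among the 1113 genes whose mean log2 CPM was 7 or more, with 238 higher and 479 lower. Outside chromosomes 5, 12, 14 and 15, 29.9% of the 11411 tested genes other than members were higher and 22% lower. Among mitochondrial ribosomal protein genes, whose products translate the mitochondrial genome, 75 of 78 were tested, with 8 higher and 33 lower and a median of -0.25, and medians from -0.31 to -0.13 over the alternative fits. Of the 64 genes elsewhere than on chromosomes 5, 12, 14 and 15, 8 were higher and 25 lower. MRPS6 on chromosome 21 rose from 78.9 ± 2.34 to 322.7 ± 5.18 CPM (SD, n = 2 each), MRPL33 on chromosome 2 from 120.4 ± 8.90 to 253 ± 32.6 CPM and MRPL32 on chromosome 7 from 49.7 ± 3.76 to 96.2 ± 5.48 CPM. MRPS10, MRPS30 and MRPS36 had log2 fold changes of -1.27, -1.12 and -1.03 (adjusted p = 2.69e-11, 2.97e-11 and 2.29e-10), the last 2 on chromosome 5.

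Of 40 genes of ribosome assembly and rRNA processing, 20 were lower and 3 higher, with a median of -0.28 (from -0.32 to -0.16 over the alternative fits), and 3 of the 34 outside the 4 chromosomes were higher and 15 lower. FBL, the methyltransferase fibrillarin of the nucleolus, had 562 and 562 CPM in MET+ and 281 and 245 CPM in the MET-KO libraries. The log2 fold change was -1.10 ± 0.093 (SE, adjusted p = 4.92e-12), and the gene lies on chromosome 19. TCOF1, a nucleolar factor for rRNA transcription on chromosome 5, had 406 and 410 CPM against 199 and 202 CPM, a log2 fold change of -1.03 (adjusted p = 1.08e-11). EMG1 had -0.88 (adjusted p = 1.31e-08). SBDS, which helps release EIF6 from new 60S subunits, GNL3 and LTV1 had 0.76, 0.58 and 0.41 (adjusted p = 9.83e-08, 0.00303 and 0.00298), and SBDS lies on chromosome 7.

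Of 16 translation factors and other genes whose mRNAs carry a TOP tract, 14 were tested, 8 lower and 3 higher, with a median of -0.29 (from -0.35 to -0.17 over the alternative fits). The 9 genes outside chromosomes 5, 12, 14 and 15 had 4 lower and 2 higher calls and a median of 0.08. The 5 genes on these chromosomes had a median of -0.68. RACK1, a protein of the 40S head, had 3233 and 3123 CPM in MET+ and 1937 and 1855 CPM in MET-KO cells, a log2 fold change of -0.75 (adjusted p = 5.7e-08). NPM1, a nucleolar chaperone, had -0.71 (adjusted p = 9.4e-08), and both genes lie on chromosome 5. EEF1D on chromosome 8 had -0.80 (adjusted p = 8.13e-09). NAP1L1, a histone chaperone on chromosome 12, had 750 and 762 CPM against 1498 and 1513 CPM, a log2 fold change of 0.99 (adjusted p = 4.49e-11) on a chromosome whose median was lower. PABPC1, which binds poly(A) tails, and EIF3H had log2 fold changes of 0.43 and 0.26 (adjusted p = 0.000458 and 0.0161).

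Dedicated chaperones, which hold single ribosomal proteins until assembly, had 2 of 6 genes lower, PDCD2 with -0.79 and BCCIP with -0.45 (adjusted p = 7.64e-07 and 0.000417), and none higher. Of 14 genes of RNA polymerase I and its factors, 3 passed as higher and 2 as lower. Their median was 0.03 and ran from -0.01 to 0.16 over the alternative fits. TWISTNB on chromosome 7, TAF1C and POLR1B had 0.77, 0.65 and 0.29, and CD3EAP and ZNRD1 had -0.47 and -0.38. The MTORC1 axis list of 19 genes also holds regulators of TOP mRNAs such as LARP1, and MYC and MAX. Of the 19, 5 passed as higher, MYC among them, and 4 as lower. Their median was 0.04 and ran from -0.06 to 0.17. EIF4EBP1, which blocks cap-dependent translation until MTORC1 phosphorylates it, had 95.7 and 105 CPM in MET+ and 39.3 and 42.9 CPM in MET-KO cells, a log2 fold change of -1.28 (adjusted p = 3.51e-12). RPTOR, the subunit that recruits MTORC1 substrates, had 1.18 (adjusted p = 5.37e-07), DEPTOR 0.89 and RHEB on chromosome 7 0.69, while MAX on chromosome 14 and LARP1 on chromosome 5 had -0.55 and -0.46.

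**Figure D4:**
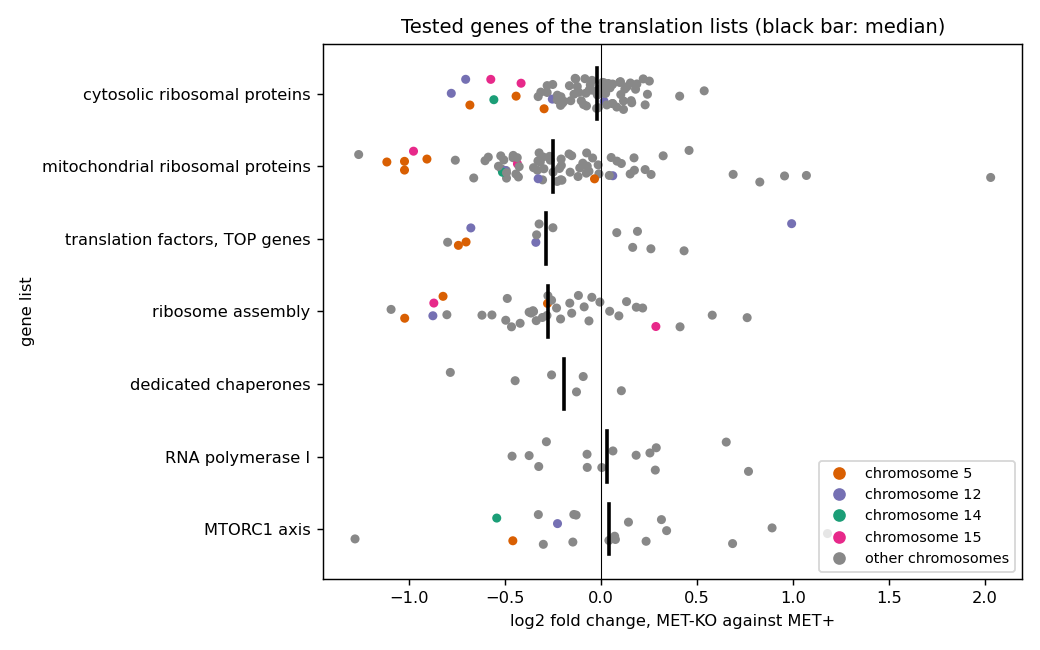
Log2 fold change in MET-KO against MET+ cells (x axis) of the tested genes of each list (rows, with 1 ribosomal protein gene not shown), 1 point per gene, with a black bar at the median of the whole list and colours for chromosomes 5, 12, 14 and 15. The ribosomal protein genes lie closely around their median of -0.02, and the mitochondrial ribosomal, assembly and TOP lists have medians between -0.25 and -0.29. Outside the coloured chromosomes the medians of these lists are -0.21, -0.25 and 0.08.

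Requiring in addition a log2 fold change of 0.5 or more in size, which 42.4% of all tested genes met, 7 members remained. RPL7 was higher, and RPLP0, RPL41, RPS14, RPL4 and RPS29 were among the 6 that were lower.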

How the data were processed

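The files deposited by the authors hold whole read counts per gene, unnormalized, from QuantSeq 3′ (FWD) libraries, with 58825 gene rows and 99 spike-in rows that held 0 counts. The submitters' processing notes name bcl2fastq, cutadapt 1.16, FastQC 0.11.7, MultiQC 1.5, STAR 2.5.4a, featureCounts 1.6.2, DESeq2 1.18.1 and GRCh38, without settings for strand or reads with several matches. The paper states no design for the expression test. Gene names and positions came from GENCODE 29 (58552 IDs matched, and the other 273 held at most 0.00396% of a library).

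All genes were fitted together in edgeR 4.0.16 (R 4.3.3) with filterByExpr by group, TMM scaling, condition as the only term, the quasi-likelihood test and Benjamini-Hochberg adjustment over 13801 genes at a threshold of 0.05. CPM values use the TMM effective library size, and a count of 0 allows up to 3 counts, or 0.276 to 0.363 CPM. The exact permutation tests ran over the 4 libraries, and figures were drawn in Python 3.11.15. Replicates differed by more than sampling noise, as chi-square over degrees of freedom was 5.45 in MET+ and 4.86 in MET-KO. On simulated counts for this comparison over 13591 genes, 86 of 100 genes changed by 1 on the log2 scale and 37 of 100 changed by 0.5 were recovered, and 6 unchanged genes were called.

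Members and lists (P stalk, 5S ribonucleoprotein, Diamond-Blackfan anemia, genes outside the rule, mitochondrial ribosome, assembly, TOP, chaperones, RNA polymerase I, MTORC1 axis and cell markers) were chosen with earlier results of these data known. Named genes are the 8 called members with the largest change in each direction, the 5 highest, those on shifted chromosomes (median of at least 0.2 in size) or chromosome X, those of the first 3 lists, those not tested, and of the other lists the 3 with the largest changes in each direction. RPS15, RPS16, RPS21, RPL8, RPL22, RPL38, RPL9 and RPS3 were added after their values were seen. The alternatives were other scalings, DESeq2 1.42.0, other filters, leaving out mitochondrial genes, thinning, a replicate block, a fold limit and leaving out each library. Values of some genes of these lists are not reported here.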

Additional observations from a re-analysis of the deposited data

How the results depend on the processing

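The 15 lower and 5 higher members became 13 and 19 with the library total only, 13 and 23 with the summed member counts as library size, 21 and 2 with TMM factors from unshifted chromosomes, 14 and 8 with at least 10 counts in every library, 17 and 6 with DESeq2's Wald test, and 6 and 1 with a log2 fold change of at least 0.5. The median over the members moved from -0.02 to 0.076 with the library total only and 0.095 with the summed member counts. Leaving out 1 library in turn gave 2 to 10 higher and 7 to 26 lower members, medians from -0.08 to 0.021 and correlations with the chromosome from 0.336 to 0.562. The difference in the share of counts on members, MET-KO minus MET+, was -0.245 percentage points as reported, -0.242 with thinning and -1.48 with the TMM effective library size, reversed to 0.162 without mitochondrially encoded genes, and lay between -0.645 and 0.155 when each library was left out, reversing without MET-KO replicate 2. The ratio of 40S to 60S member counts stayed lower in MET-KO cells with thinning, with pseudogene counts added and with each library left out. Its differences ran from -0.0604 to -0.0287 when each library was left out. All of these alternatives kept RPS29, and without the counts of this gene the groups overlap. The cause of these movements was not tested. Over the 2 pairs of equal numbers, deviations from the group means correlated at -0.0349. No pairing by number was seen, but 1 correlation with 2 libraries a group cannot exclude it. The replicate block gave 2 higher and 13 lower members and a correlation of 0.475 with the chromosome. With 2 libraries a group, 37 of 100 changes of 0.5 on the log2 scale were recovered in simulated counts. That simulation changed 200 genes, whereas 54.1% of all tested genes were called here, so its share does not describe the members. Members without a call may still differ.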
